A study of Mus musculus with 14 samples.

Results

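The immediate early genes Fos, Fosb, Jun, Junb, Jund, Egr1, Atf3, Ier2, Ier3 and Dusp1 were followed in the colon epithelium of mice with and without epithelial Smad4, on water and early in DSS injury. They were chosen by name, as 10 of the 37680 genes in the count table; the choice used no threshold on measured levels, but it was made with earlier results of these data known. RNA-seq was done on isolated colonic crypt epithelium of adult mice of 4 groups, which were WT on water (4 libraries), Smad4 KO on water (4), WT given 2.5% DSS to drink for 3 d (3) and Smad4 KO after the same DSS treatment (3). In the Smad4 KO, a tamoxifen-inducible Cre (Villin-Cre ERT2) under the promoter of villin, which is active in intestinal epithelium and not in the mesenchyme below it, deletes floxed Smad4 (Smad4 f/f). Smad4 is the shared transducer of TGF-β and BMP signals, and DSS (dextran sulfate sodium) is a polysaccharide that injures the colonic mucosa. According to the methods of the study, animals were matched for age and gender and harvested around midday, and the epithelium was released from the mesenchyme in EDTA in the cold. The sources used here do not state whether WT mice received tamoxifen. They do not give the time from harvest to lysis for single animals either.

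Immediate early genes are transcribed within minutes of a stimulus, from promoters at which the required factors (SRF with its ternary complex partners, and CREB) are already present and become active when ERK, p38 or other kinases phosphorylate them. Their transcripts are short-lived, and many encode transcription factors. Fos and Jun proteins pair as AP-1, and dissociating or handling a tissue is known to induce these genes as well as injury does. In the gut they are best known in regeneration and in the response to growth factors and stress.

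Promoter sequence was available in the table used for 8 of the 10 genes (RefSeq, build GRCm38.p6, a different build from the mm9 of the counts), which leaves out Egr1 and Ier2. The 250 bases before each annotated start site were searched on both strands for motifs that such genes are known for. The core of the cyclic AMP response element (CRE, the site of CREB and ATF proteins), TGACG or its reverse complement CGTCA, was present in 5 of the 8 windows and in 17.8% of 32851 promoters of the same length. The palindrome TGACGTCA, which contains the core on both strands, was found before Dusp1 and in 1.55% of all promoters. The 150 bases before the start sites of the 5 genes with a core are printed because CREB, which binds this motif, is a known activator of Fos and other immediate early genes. They are given 5′ to 3′ along each gene, and capitals mark the CRE core on either strand.
Fos: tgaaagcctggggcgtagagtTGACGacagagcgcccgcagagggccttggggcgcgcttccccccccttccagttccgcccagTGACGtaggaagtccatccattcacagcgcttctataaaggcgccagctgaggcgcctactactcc
Fosb: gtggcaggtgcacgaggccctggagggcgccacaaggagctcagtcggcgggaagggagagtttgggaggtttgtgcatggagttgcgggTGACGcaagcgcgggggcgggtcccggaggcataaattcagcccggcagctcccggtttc
Junb: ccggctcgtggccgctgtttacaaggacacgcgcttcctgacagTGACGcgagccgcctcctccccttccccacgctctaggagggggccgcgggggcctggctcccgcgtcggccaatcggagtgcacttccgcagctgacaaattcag
Atf3: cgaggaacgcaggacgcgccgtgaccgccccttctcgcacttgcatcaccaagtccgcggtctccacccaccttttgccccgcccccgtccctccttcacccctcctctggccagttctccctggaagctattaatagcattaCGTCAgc
Dusp1: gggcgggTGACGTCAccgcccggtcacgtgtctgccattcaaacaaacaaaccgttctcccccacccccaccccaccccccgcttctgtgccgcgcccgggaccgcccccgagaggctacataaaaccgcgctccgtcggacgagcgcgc
In build GRCm38.p6 these stretches lie at chr12:85473740-85473889 on the plus strand for Fos, and on the minus strand at chr7:19310046-19310195 for Fosb, chr8:84978749-84978898 for Junb, chr1:191183334-191183483 for Atf3 and chr17:26508473-26508622 for Dusp1. Fos had cores beginning 129 and 66 bases before the start and a TATA box (TATAAA) 33 bases before it. The core began 60 bases before the start in Fosb, 106 in Junb and 7 in Atf3. Dusp1 had its palindrome 143 bases before the start, and a further core, upstream of the printed stretch, at 191 bases.

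**Figure D1:**
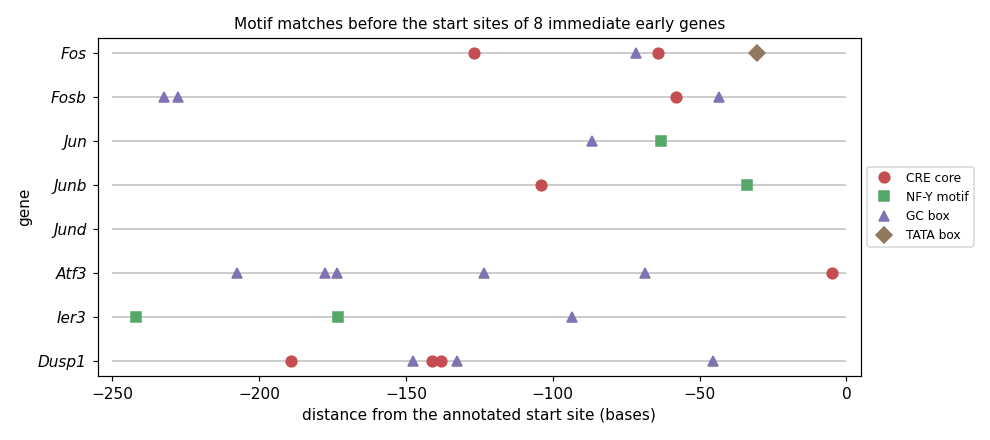
Positions of motif matches in the 250 bases before the annotated start sites of 8 immediate early genes, with distance from the start in bases on the x axis and 1 gene per line; symbols mark the CRE core, the NF-Y motif, the GC box and the TATA box at the middle of each match. Cores are seen in Fos, Fosb, Junb, Atf3 and Dusp1, and Jund has no match to any of the 4.

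GC boxes (GGGCGG or its reverse complement) were present in 6 of the 8 windows and in 32.7% of all promoters, and the NF-Y motif (CCAAT or its reverse complement) in 3 of 8 and in 33.8% of all promoters. The AP-1 site TGANTCA, with any base in the middle, was present in 0 of 8 windows and 6.75% of all promoters, and the CArG box, the binding motif of SRF, in 0 of 8 and 1.47%. TATAAA was found before Fos alone among the 8, and in 12.4% of all promoters. A match says that these letters are in the window, and the absence of one says that they are not in it.

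Total counts ran from 12882827 to 26087231 per library, and the 10 genes together took 0.0536% to 0.108% of the counts. Smad4 itself, the check on the labels, had 2296 to 3532 normalized counts in the 7 WT libraries and 679 to 906 in 6 of the 7 libraries labelled Smad4 KO. The remaining library, labelled Smad4 KO water replicate 1, had 3063, the level of WT. This goes against its label, under which it is kept. The study's RNA-seq figure legends count 3 replicates of Smad4 KO on water, where 4 deposited libraries bear that label. Those legends do not say which libraries were used, so the set of samples here differs from the study's. Fits that leave out the library with the WT level of Smad4 are also given for the 10 genes and for Mapk8, Map2k2, Mapk12 and Spred1. The cell type markers, the other genes of the further lists, the spread within groups and the shared pattern are given only with it. Mitochondrial genes took 30.6%, 32.8% and 21.4% of the counts in WT water replicates 3 and 4 and Smad4 KO water replicate 4, and at most 8.23% in the other libraries. The 8 epithelial markers summed to 14587 to 23152 CPM (counts scaled to library size), whereas the 7 fibroblast markers summed to 1.96 to 28.7 and the 6 myeloid markers to 7.70 to 20.8. All epithelial markers had counts in every library. In bulk epithelium, fewer cells that express a gene and less RNA of it per cell cannot be told apart.

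Per kilobase of exon, the 10 genes covered most of the range of expressed genes. As mean RPKM (reads scaled to exon length and library depth) over the 14 libraries, Jund had 103 ± 29.8 (SD, n = 14), Ier2 86.5 ± 21.8, Junb 71.4 ± 22.5, Fos 45.5 ± 15.4 and Jun 22.1 ± 3.05. Atf3 followed with 12.7 ± 3.64, Ier3 with 8.39 ± 2.10, Egr1 with 8.19 ± 4.58, Dusp1 with 3.80 ± 1.45 and Fosb with 0.723 ± 0.388. Jund thus stood at percentile 95.9 of 15106 genes with a length and Fosb at percentile 18.1. In the order of the levels, Jund, Ier2 and Junb were within an SD of their neighbours, as were Ier3, Egr1 and Dusp1, and Ier2 was above Junb in WT on water and below it in Smad4 KO after DSS. Jun (ENSMUSG00000052684), Jund (ENSMUSG00000071076) and Egr1 (ENSMUSG00000038418) each share exonic bases with an annotated gene on the opposite strand, and whether counting used strand is not given in the sources used here, so that reads of the pair cannot be told apart without it.

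**Figure D2:**
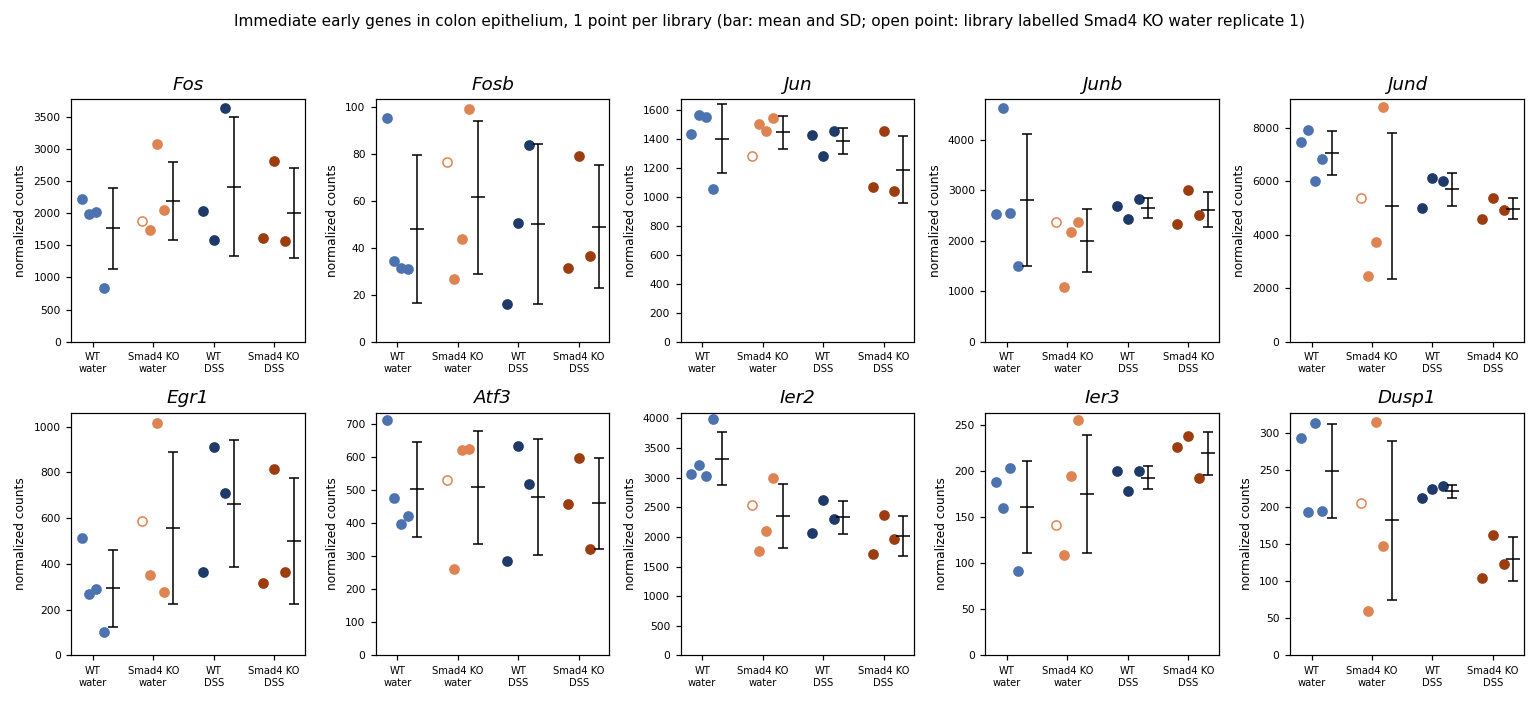
Normalized counts of the 10 genes in each library (points) by group, with the group mean and SD beside them as a bar; the y axes start at 0 and the open point is the library labelled Smad4 KO water replicate 1. Ier2 in WT on water lies above all other water and all WT DSS libraries, Dusp1 separates the genotypes after DSS, and the other genes overlap between the groups compared.

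The comparison of Smad4 KO with WT on water asked whether loss of epithelial Smad4 alone shifted these genes. None of the 10 passed edgeR's test at an adjusted p of 0.05, beside 8.44% of the 15127 genes tested, and 1 had an unadjusted p under 0.05, beside 29.3% of all genes. By edgeR's log2 fold change, 4 of the 10 were lower in Smad4 KO, beside 50.5% of all genes, and 6 were higher. The median of the 10 log2 fold changes was 0.03, against -0.01 over all genes. DESeq2 on the same libraries called 1 of them, Ier2, beside 17.6% of all genes. A fit with the replicate number as a block also called Ier2, beside 19.7% of all genes, although the numbers were not taken to pair the libraries. The split into 6 higher and 4 lower turned to 3 and 7 without WT water replicate 4, and to 4 and 6 both without Smad4 KO water replicate 4 and with the mitochondrial share as a covariate. With that covariate edgeR called 0 of the 10 on water, and 8 of all genes in place of 1276. With the library labelled Smad4 KO water replicate 1 left out, 5 of the 10 were higher and 5 lower, edgeR called 0 and DESeq2 called Ier2 (adjusted p = 0.043), beside 16.5% of all genes.

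Ier2, which encodes a nuclear protein of the immediate early response (ENSMUSG00000053560, chromosome 8 of mm9, 87185230 to 87186751, minus strand, 1 exon), was the gene that separated the genotypes on water. Its normalized counts were 3064, 3208, 3024 and 3982 in the WT libraries and 2540.2, 1769, 2096 and 3001 in the libraries labelled Smad4 KO. All WT values were above all Smad4 KO values, by 23.05 counts at the closest, and the same held without the library labelled replicate 1. Of all genes, 5.21% were separated in this direction, and 7.67% without that library. Both shares are for the lower direction alone, and 1 of the 10 genes was separated in either direction. The log2 fold change of Ier2 was -0.50 (95% interval -0.85 to -0.15, edgeR adjusted p = 0.064). It was adjusted p = 0.031 in DESeq2, and 0.18 in edgeR on the 8 water libraries alone, and without replicate 1 of the libraries labelled Smad4 KO edgeR gave -0.54 (adjusted p = 0.078). Some cell type markers also differed by genotype on water. The 5 colonocyte markers summed to 2060.4 to 2904 CPM in the libraries labelled Smad4 KO and to 3209.6 to 4255 in WT without overlap. Of these markers 4 were lower and 1 higher, and Car1 was lower by edgeR's test. Of the 7 fibroblast markers (at most 4 at 0 in a library) 5 were tested, with 4 higher and 1 lower. Dcn and Col1a2 among them were called higher. The fibroblast sums overlapped, at 4.41 to 28.7 CPM against 2.62 to 9.09, with 28.7 in Smad4 KO water replicate 4 alone. Of the 5 stem and proliferation markers 4 were higher and 1 lower, and Lgr5 and Smoc2 were called higher. Their sums overlapped too, at 379 to 695 CPM against 362 to 515. The part of these cell types in the level of Ier2 was not tested. Without Smad4 KO water replicate 4 the edgeR adjusted p of Ier2 was 0.011 and its log2 fold change -0.62, and Jund was then called as well (-0.86, adjusted p = 0.0079), beside 27.3% of all genes.

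Jund and Junb, 2 of the 3 Jun family members, which restrain or replace Jun in AP-1, had lower means in Smad4 KO on water without passing the test. Jund (chromosome 8, 73221638 to 73224515, plus strand) had normalized counts of 7469, 7900, 5992 and 6841 in WT and 5372, 2459.7, 3728 and 8753 in the libraries labelled Smad4 KO. The highest Smad4 KO value, in replicate 4, was above all WT values, and the other 3 were below them all. The log2 fold change was -0.47 (95% interval -1.04 to 0.10, edgeR adjusted p = 0.25), and -0.50 without replicate 1. Junb (chromosome 8, 87500811 to 87502617, minus strand) had 2539, 4634, 2556 and 1508 in WT and 2372, 1086, 2183 and 2377 in the libraries labelled Smad4 KO, with a log2 fold change of -0.49 (edgeR adjusted p = 0.25), or -0.58 without replicate 1. Its WT values spanned 3.07-fold and enclosed 3 of the 4 Smad4 KO values. With the 3 libraries over 20% mitochondrial counts left out, a choice made after the data were seen, edgeR called Junb (-0.93, adjusted p = 0.046), Jund (-0.99, adjusted p = 0.018) and Ier2 (-0.55, adjusted p = 0.044), beside 15.9% of all genes. That fit held 2 WT water libraries and 3 labelled Smad4 KO, among them replicate 1 with its WT level of Smad4, and it was not run without that library. Only 2 of the 10 genes then had a higher mean in Smad4 KO, in place of 6.

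Egr1, a zinc finger transcription factor and a classical ERK and SRF target (chromosome 18, 35020861 to 35024638, plus strand), had the largest mean difference on water, in the other direction. Normalized counts were 511, 268, 292 and 102 in WT and 588, 351, 1015 and 277 in the libraries labelled Smad4 KO. The groups overlapped, and both extremes were single libraries, WT replicate 4 and Smad4 KO replicate 3. The log2 fold change was 0.91 with a 95% interval of -0.08 to 1.90 (edgeR adjusted p = 0.21), and 0.88 without replicate 1 of Smad4 KO. With the mitochondrial share as a covariate it was 0.41 (edgeR adjusted p = 0.66). Dusp1, the phosphatase that switches off p38, JNK and ERK, had a log2 fold change of -0.44 (95% interval -1.18 to 0.29, and -0.51 without that replicate), and Fos, Fosb, Jun, Ier3 and Atf3 lay between 0.02 and 0.33, each with an interval that spanned 0. Without that replicate these 5 lay between -0.0050 (Atf3) and 0.37 (Fos).

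After DSS, the comparison of Smad4 KO with WT asked whether the genotypes differed early in injury. By edgeR's log2 fold change, 9 of the 10 genes were lower in Smad4 KO, beside 50.1% of all genes. The median of the 10 log2 fold changes was -0.20, against -0.00058 over all genes. No gene of the 10 passed edgeR's test, beside 0.0132% of all genes, and 0 had an unadjusted p under 0.05, beside 4.43% of all genes. DESeq2 on all libraries called none of them either, and DESeq2 on the 6 DSS libraries called 1, beside 3.45% of all genes. The count of 9 rested on WT DSS replicate 3, without which 5 were lower and 5 higher, and it was 6 without Smad4 KO DSS replicate 3. Among the 5 DSS libraries that share the name prefix D, which leave out WT DSS replicate 3, 5 of the 10 were lower.

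Dusp1 (ENSMUSG00000024190, chromosome 17, 26642535 to 26645464, minus strand) was the gene whose values separated the genotypes after DSS. It had 212, 224 and 228 normalized counts in WT and 104, 163 and 124 in Smad4 KO. The WT libraries lay within 1.08-fold of each other and all of them were above the 3 Smad4 KO libraries. Of all genes, 11.4% were separated in this direction, so that 1 gene of the 10 is no more than the share of all genes. The log2 fold change was -0.76 (standard error 0.40, 95% interval -1.62 to 0.10, edgeR adjusted p = 0.999). In the fit of the 6 DSS libraries alone, whose spread was estimated without the water libraries, the standard error of the Dusp1 fold change was 0.18 and its edgeR adjusted p 0.11, and DESeq2 on those 6 gave 0.013. On water, Dusp1 ranged from 60.0 to 315 in the libraries labelled Smad4 KO, a 5.24-fold span, and from 193 to 314 in WT. The 103 to 171 raw counts of Dusp1 in the Smad4 KO DSS libraries were among the lowest of the group, above only Fosb. Marker sums separated the genotypes after DSS as well. The 7 fibroblast markers summed to 9.28 to 15.5 CPM in Smad4 KO and to 1.96 to 4.76 in WT, with at most 3 of them at 0 in a library. Colonocyte markers summed to 2026 to 2713 against 2774 to 3615 CPM, and the 5 goblet markers to 8787 to 10124 against 11255 to 13203. Of the tested markers in Smad4 KO, 5 fibroblast markers were higher and 0 lower, 0 colonocyte markers higher and 5 lower, and 1 goblet marker higher and 4 lower. None of these passed edgeR's test. Of the 5 stem and proliferation markers 2 were higher and 3 lower, with overlapping sums (386 to 447 against 330 to 476 CPM). Smoc2 among them was called higher, beside 0.0132% of all genes called. The part of these cells in the Dusp1 difference was not tested.

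The AP-1 genes overlapped between the genotypes after DSS. Fos (ENSMUSG00000021250, chromosome 12, 86814840 to 86818223, plus strand) had 2028, 1576 and 3636 normalized counts in WT and 1620.4, 2806 and 1574 in Smad4 KO, so that each group held 1 library far above the other 2. Its log2 fold change was -0.27 (95% interval -1.03 to 0.49). Jun (chromosome 4, 94715725 to 94718913, minus strand) had 1425, 1281 and 1452 in WT and 1069, 1453 and 1038 in Smad4 KO. The fold change of Jun was the most precise of the 10, at -0.22 with a 95% interval of -0.58 to 0.13, which corresponds to 0.67 to 1.09 of the WT level. Junb was at -0.02 and Jund at -0.20. Ier3, an inhibitor of apoptosis and NF-κB regulator (ENSMUSG00000003541, chromosome 17, 35958629 to 35959868, plus strand), was the single gene with a higher mean in Smad4 KO, at 219 ± 23.3 (SD, n = 3) normalized counts against the 192 ± 12.5 (SD, n = 3) of WT. Its log2 fold change was 0.18 with an interval of -0.46 to 0.83. The edgeR adjusted p was 0.999 for all of these.

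**Figure D3:**
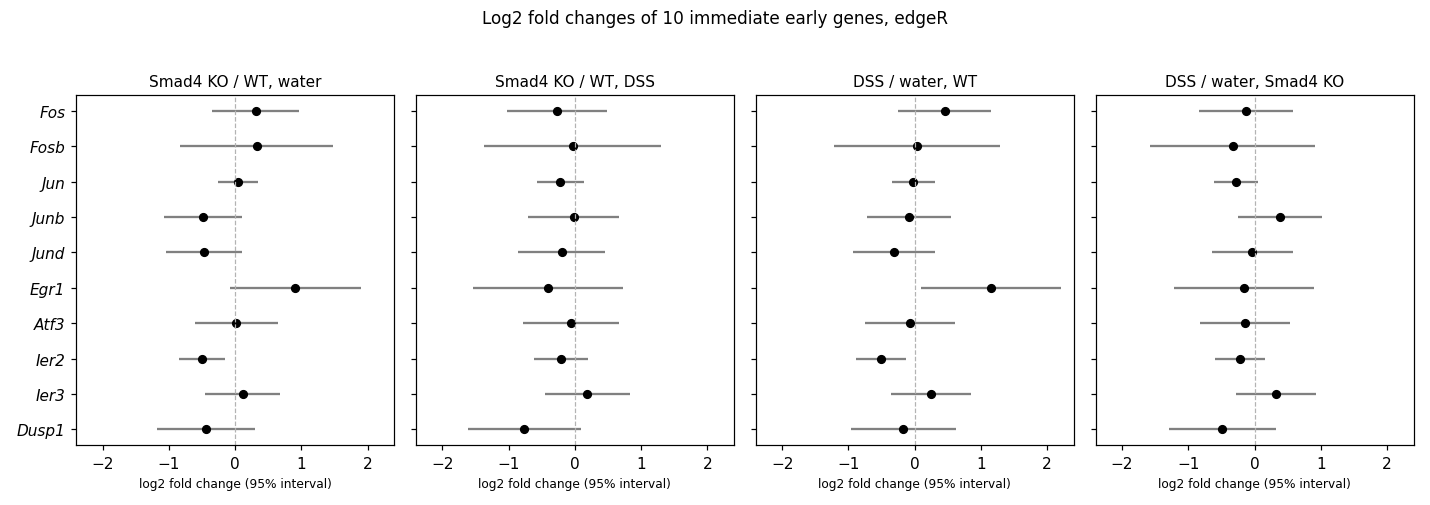
Log2 fold changes of the 10 genes (points) with 95% intervals (lines) from edgeR in the 4 comparisons, with 0 marked by a dashed line. The intervals of Ier2 on water and of Ier2 and Egr1 for DSS in WT lie off 0 before adjustment over all genes, and all others span it.

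DSS against water within each genotype asked how these genes stood after 3 d of injury. In WT, no gene of the 10 passed edgeR's test, as was true of 0% of all genes, and 2, Ier2 and Egr1, had an unadjusted p under 0.05, beside 21% of all genes. DESeq2 called none of the 10 on all libraries and called Ier2 on the 7 WT libraries (adjusted p = 0.016), beside 12.4% of all genes. The log2 fold change for DSS in WT was below 0 in 6 of the 10, beside 51.4% of all genes, and above 0 in 4. Its median over the 10 was -0.05 (all genes -0.01).

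Ier2 was lower after DSS in WT, at 2069, 2616 and 2303 normalized counts against the 3024 to 3982 of water. No DSS library reached a water library, a separation in this direction seen in 11.6% of all genes. With 1 gene of the 10 separated, the group stood no higher than that share. The log2 fold change of Ier2 was -0.51 (95% interval -0.89 to -0.13, edgeR adjusted p = 0.15). With the mitochondrial share as a covariate the fold change of Ier2 was -0.34 (edgeR adjusted p = 0.82). WT on water is the group that stands high in both comparisons of Ier2, which share these 4 libraries. Egr1 went the other way, from 293 ± 168 (SD, n = 4) on water to 364, 913 and 711 normalized counts after DSS, and 2 of the 3 DSS libraries were above all water libraries. The Egr1 log2 fold change was 1.16 (95% interval 0.10 to 2.21, edgeR adjusted p = 0.20), and 0.53 with the mitochondrial share as a covariate. Fos was at 0.45 (95% interval -0.26 to 1.16) and Ier3 at 0.25 (-0.35 to 0.85), while Jun stood at -0.02 (-0.35 to 0.31).

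In Smad4 KO, 8 of the 10 genes had a log2 fold change below 0 after DSS, beside 53.3% of all genes. The median over the 10 was -0.16 (all genes -0.02). None passed edgeR's test, beside 0.0661% of all genes, 0 had an unadjusted p under 0.05, beside 8.4% of all genes, and DESeq2 called 0. None separated the 2 groups without overlap, beside 8.88% of all genes. If the library labelled Smad4 KO water replicate 1 is left out, Jun did, with 1500, 1456 and 1541 normalized counts on water and 1453, 1038 and 1069 after DSS, a margin of 3.21 counts between the closest values, beside 6.47% of all genes in this direction. The log2 fold change of Jun was -0.28 (95% interval -0.62 to 0.05, edgeR adjusted p = 0.67), that of Dusp1 -0.49 (-1.30 to 0.32) and that of Junb 0.38 (-0.25 to 1.02). Without that library they were -0.34, -0.43 and 0.47, and 8 of the 10 were lower as before. The count of 8 was 5 without Smad4 KO DSS replicate 1 and 5 without Smad4 KO DSS replicate 3. All Smad4 KO DSS libraries have the name prefix D, and no Smad4 KO water library has it. DSS and name prefix, whose meaning is not stated, can therefore not be told apart within Smad4 KO.

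The difference of the DSS responses, Smad4 KO minus WT, was tested as an interaction. No gene of the 10 passed in edgeR, beside 0.00661% of all genes, 0 had an unadjusted p under 0.05, beside 7.5% of all genes, and DESeq2 called 0. Egr1 had the largest difference, -1.32 on the log2 scale (95% interval -2.82 to 0.18, edgeR adjusted p = 0.66), followed by Fos at -0.58 (-1.58 to 0.43) and Junb at 0.47 (-0.43 to 1.37). The difference was below 0 for 6 of the 10, beside 50.6% of all genes, but for 4 without Smad4 KO water replicate 3 or without the 3 libraries of high mitochondrial share, where the median was 0.061 and 0.31 in place of -0.17. Leaving out the library labelled Smad4 KO with the WT level of Smad4 gave 7 below 0, with -1.29 for Egr1, -0.64 for Fos and 0.56 for Junb. The intervals of all 10 spanned 0, and that of Fosb ran from -2.12 to 1.40.

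The genes differed in how far libraries of 1 group stood apart. The pooled SD of log2 levels within groups was 0.20 for Jun and 0.25 for Ier2, at or below the median of 0.27 over 11457 genes with at least the mean count of Fosb. It was 0.41 for Ier3, 0.45 for Jund, 0.48 for Junb, 0.51 for Atf3, 0.54 for Fos and 0.60 for Dusp1. Egr1 at 0.83 and Fosb at 0.86 were at percentiles 97.8 and 98.1 of those genes, so that libraries of the same group typically lay 1.77-fold and 1.81-fold from their mean. Fosb (ENSMUSG00000003545, chromosome 7, 19888070 to 19895394, minus strand), a Fos relative with a long-lived splice form in neurons, rested on 15 to 133 raw counts, which adds counting error to its spread. Its normalized counts were 95.4, 34.4, 31.6 and 31.1 in WT on water and 76.7, 26.6, 43.8 and 99.4 in the libraries labelled Smad4 KO on water. After DSS they were 16.0, 50.5 and 84.0 in WT and 31.4, 79.2 and 36.4 in Smad4 KO.

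Several libraries stood high or low in their group for most of the 10 genes together. Smad4 KO DSS replicate 2 was the highest of its 3 libraries for 10 of the 10 genes, beside 37% of all genes. In that library Egr1 had 816 normalized counts against 318 and 363 in the other 2, and Fos 2806 against 1620.4 and 1574. Smad4 KO water replicate 2 was the lowest of its 4 libraries for 8 of the 10, all but Jun and Egr1, beside 28.7% of all genes. There Dusp1 had 60.0 against 148 to 315 in the other 3, and Atf3, a stress-induced ATF family factor (ENSMUSG00000026628, chromosome 1, 192994175 to 193007219, minus strand), 261 against 531 to 622. Smad4 KO water replicate 4 was the highest for 7 and the lowest for Egr1, and WT water replicate 4 was the lowest for 6 and the highest for Ier2.

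**Figure D4:**
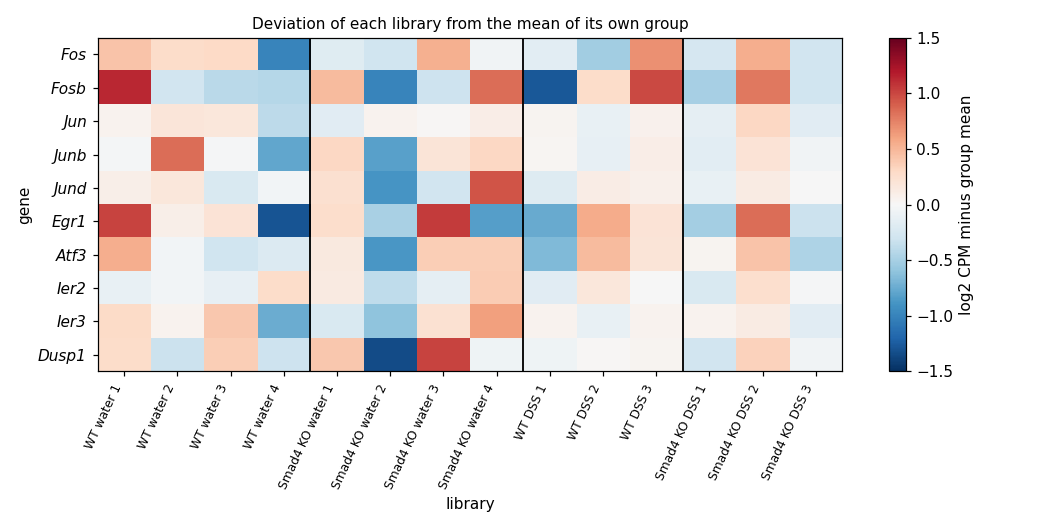
Log2 CPM of each of the 10 genes (rows) in each library (columns) minus the mean of its own group, with red above and blue below; vertical lines part the groups. The column of Smad4 KO DSS replicate 2 is red throughout, and that of Smad4 KO water replicate 2 is blue for all genes but Jun.

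The 8 heat shock genes taken as a sign of tissue handling summed to 1939 CPM in Smad4 KO DSS replicate 2, the lowest of its group (1939 to 2359), and to 2287 in Smad4 KO water replicate 2 (group 1667 to 2699). Most of this sum was Hspa8, with a mean of 31848 normalized counts over the 14 libraries, followed by Hsp90aa1 with 4963. Hspa1a and Hspa1b had means of 59.9 and 237, so that the sum hardly reflects them. On water their highest values were 371 and 1187 in WT, both in replicate 1, and 134 and 414 in Smad4 KO, both in replicate 4. After DSS the highest were 54.0 and 294 in WT, both in replicate 2, and 36.5 and 162 in Smad4 KO, both in replicate 1. In WT on water, replicate 1 had both the highest heat shock sum (2891 CPM against 1698 to 1956) and the highest Fos, Fosb, Egr1 and Atf3. The part of heat shock genes and time to lysis in the levels of the 10 genes was not tested. The mitochondrial share was fitted as a covariate, and its values stand beside Egr1 on water and beside Egr1 and Ier2 for DSS in WT. Myeloid markers summed to 17.6 CPM in Smad4 KO DSS replicate 2 and to 17.0 and 16.5 in the other 2, and to 19.8 in Smad4 KO water replicate 2 (group 16.0 to 20.4).

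As a description of the shared pattern, the mean of the 10 centred log2 levels was taken in each of the 14 libraries and set against 11521 other genes with a mean of at least 50 normalized counts. The 6 most alike were Ybey, an RNA processing enzyme (Pearson's r = 0.84, Spearman's rho = 0.65), Scnn1a, a subunit of the epithelial sodium channel (0.84 and 0.72), Trpv3, a cation channel (0.83 and 0.72), Csnk1d, casein kinase 1 delta (0.83 and 0.88), Tead4, a partner of YAP (0.82 and 0.79), and AW555464 (0.82 and 0.78). Without Smad4 KO water replicate 2 and WT water replicate 4, the 2 libraries farthest from the median of the pattern, r fell to between 0.60 and 0.71. These genes were picked from many as the closest, and the 14 points share library depth, group and RNA quality.

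Of 38 further immediate early genes, such as Nr4a1, Egr2 and Klf6, 33 could be tested, and none passed edgeR's test in any of the 5 comparisons. On water, 17 had a higher and 16 a lower mean in Smad4 KO (median log2 fold change 0.08), and after DSS 12 and 21 (median -0.09). Klf6, a zinc finger factor of the early wound response, was the one with the smallest p after DSS, at 1790.3 ± 209.5 (SD, n = 3) normalized counts in Smad4 KO against 2652 ± 249 (SD, n = 3) among WT libraries. Its log2 fold change was -0.57 (edgeR adjusted p = 0.71). On water the same gene was at 2664 ± 457 (SD, n = 4) in Smad4 KO, with 2093 ± 424 (SD, n = 4) for the WT libraries, and the difference of its DSS responses was -0.91 (edgeR adjusted p = 0.64). For DSS in WT the smallest p of the list was that of Zfp36l1, a factor that destabilizes short-lived mRNAs (-0.53, edgeR adjusted p = 0.16), and for DSS in Smad4 KO that of Trib1, a pseudokinase (-0.59, edgeR adjusted p = 0.43).

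Upstream of these genes, 3 of the 20 tested MAP kinases and their activators and targets passed the test on water, beside 8.44% of all genes. Mapk8, which encodes the Jun kinase JNK1, was higher in Smad4 KO at 574 ± 88.4 (SD, n = 4) normalized counts against 391 ± 39.1 (SD, n = 4), with a log2 fold change of 0.55 (edgeR adjusted p = 0.036). Map2k2, the ERK kinase MEK2, was lower at 2786 ± 682 against 4502 ± 881 (-0.69, edgeR adjusted p = 0.037). Mapk12, a p38 kinase at a low level of 10.4 to 18.6 normalized counts in Smad4 KO, was lower too (-1.97, edgeR adjusted p = 0.042), against WT values that spread from 18.9 to 135. Of the 15 genes of ERK feedback 1 was called, a share below that of all genes. Spred1, an inhibitor of Ras signaling, was higher in Smad4 KO on water at 892 ± 259.8 (SD, n = 4) normalized counts against 532 ± 128 (SD, n = 4), a log2 fold change of 0.74 (edgeR adjusted p = 0.042). In the other comparisons none of these 4 passed. When the library labelled Smad4 KO water replicate 1 was left out, the edgeR adjusted p was 0.019 for Mapk8, 0.040 for Map2k2, 0.062 for Mapk12 and 0.054 for Spred1, and in the fit of the 8 water libraries alone it was 0.15 to 0.16 for each. With the mitochondrial share as a covariate no call held (edgeR adjusted p = 0.089 for Mapk8, 0.13 for Map2k2, 0.17 for Mapk12 and 0.16 for Spred1), and the log2 fold change was -1.39 for Mapk12 and 0.46 for Spred1. That of Mapk12 was -1.11 without WT water replicate 4. Leaving out 1 library ended the call with 8 of the 14 libraries for Mapk8, 9 for Map2k2 and 11 each for Mapk12 and Spred1, among them, for all 4 genes, WT water replicate 4, Smad4 KO water replicates 2 and 3, and replicates 2 and 3 of both DSS groups. None of the 9 upstream factors (SRF, its cofactors and CREB), the 9 tested further AP-1 partners, the 10 genes of the integrated stress response or the 7 tested candidate AP-1 targets passed in any comparison.

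Among the candidate AP-1 targets, Ccnd1, which encodes cyclin D1, had the smallest p for DSS in WT, with 2239 ± 424 (SD, n = 3) normalized counts after DSS and 1014 ± 303 (SD, n = 4) on water, a log2 fold change of 1.14 (edgeR adjusted p = 0.11). Ccnd1 was also higher in Smad4 KO than in WT on water (0.65, edgeR adjusted p = 0.064) and after DSS in Smad4 KO (0.68, edgeR adjusted p = 0.47). All 7 tested candidates had a higher mean in Smad4 KO on water (median log2 fold change 0.65, all genes -0.01). After DSS, 5 were higher and 2 lower in Smad4 KO (median 0.17). In the stress response list, Ddit3, the CHOP factor that pairs with ATF family proteins, had -1.15 in Smad4 KO against WT on water (edgeR adjusted p = 0.054) and -1.38 after DSS in WT (edgeR adjusted p = 0.12), with 538 ± 264 (SD, n = 4) normalized counts in WT on water as the high group of both.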

How the data were processed

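RNA-seq of isolated mouse colon epithelium was done in 14 libraries of 4 groups (WT and Smad4 KO, on water or after 3 d of 2.5% DSS), taken from the deposited labels. According to the study's methods, the authors selected polyadenylated RNA of an integrity number above a set minimum, sequenced paired-end reads on NovaSeq, aligned them to mm9 with Hisat2 and counted them on genes with featureCounts. The methods speak of normalized counts as submitted, whereas the deposited table used here holds whole-number counts whose totals differ between libraries, and it was treated as counts without normalization. The strand setting of the counting is not given in the sources used here. The authors ran DESeq2 on pairs of groups.

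From the counts, a gene was kept if 3 or more libraries had 10 or more counts of it, and the 15127 such genes, all 10 members among them, were tested in edgeR 4.0.16 (TMM, quasi-likelihood test, all 14 libraries in 1 model of 4 groups) with Benjamini-Hochberg adjustment over all genes and a threshold of 0.05. Intervals are 95% intervals of the log2 fold change from the same model. Normalized counts are counts scaled by TMM-adjusted library sizes to their geometric mean. RPKM used the merged exon length of GENCODE M1, which lists 37310 of the 37680 gene IDs. Total counts ran from 12882827 to 26087231. Libraries of 1 group differed by at least 15.6 times sampling noise (chi-square per degree of freedom), more than repeated sampling of 1 library would give. This cannot tell libraries of the same mouse from libraries of different mice. The labels do not state that each library is 1 mouse, and p-values measure the spread between libraries.

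The members were chosen by name, with no threshold on measured values, but they, the gene lists and the alternatives were chosen with earlier results of these data known. All 10 members are named, and of each other list up to 2 called genes in each direction with the largest change or, where none was called, up to 2 with the smallest p. The 6 genes most like the mean pattern were named by Pearson's r over the 14 libraries. The alternatives were DESeq2 1.42.0, models of 2 groups, other normalization and filters, blocks of replicate number and of name prefix, the mitochondrial share, and each library left out. Fits without the 3 libraries of over 20% mitochondrial counts, and without Smad4 KO water replicate 1 in DESeq2 or in 2 groups, were added after the data were seen. Scripts were tested on simulated counts. Motifs were searched in RefSeq promoters with regular expressions. R 4.3.3 and Python 3.11.15 were used.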

Additional observations from a re-analysis of the deposited data

Results flagged for a closer look

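In groups of 4 libraries, the gap of the highest or lowest library to its nearest neighbour was set against Dixon's 95% critical value for 4 values, for each of the 10 genes, in 20 groups. Chance flags about 1 in 20 of such groups, and 3 were found. Fos in WT water replicate 4 had 829 normalized counts, against 1989 to 2213 in the other 3 libraries. This library also had the smallest total and the largest mitochondrial share, 32.8%, and the part of either in the Fos value was not tested. Fosb in WT water replicate 1 had 95.4, against 31.1 to 34.4 in the others, and that library had the highest heat shock sum of all 14. Junb in Smad4 KO water replicate 2 had 1086, against 2183 to 2377 in the others, and 8 of the 10 genes were lowest there.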

How the results depend on the processing

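The count of genes called among the 10 was 0 in each comparison under edgeR, and it moved in 7 pairs of comparison and setting. On water it was 1 with DESeq2 on all libraries, 1 with the replicate block, 1 with DESeq2 with the doubtful library (labelled Smad4 KO water replicate 1) left out, and 3 without the 3 libraries over 20% mitochondrial counts. After DSS it was 1 with DESeq2 on 2 groups, and for DSS in WT 1 with the same. Leaving out 1 library gave 0 to 2 on water and 0 in the other comparisons. Calls over all genes on water ran from 1 to 4104 between settings, and the edgeR fit of the 8 water libraries alone gave 1.

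Replicate numbers are shared between the groups, but libraries of the same number mostly did not deviate together, with correlations of -0.08 to 0.35 in 13 pairs. Only 1 was over 0.1, that of WT and Smad4 KO water replicates 4, which share the name prefix MP and a high mitochondrial share. The numbers were not taken to pair libraries. In the fit with the replicate block, 2977 genes were called on water in place of 1276, with Ier2 among them (edgeR adjusted p = 0.025), 2 after DSS, 0 for DSS in WT, 6 for DSS in Smad4 KO and 1 for the difference, and the log2 fold change of Jund for DSS in Smad4 KO was 0.22 in place of -0.03.

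Of the 50 log2 fold changes (10 genes, 5 comparisons), 27 kept their sign under every setting. Without the 3 libraries of high mitochondrial share the values that changed sign were, on water, Fosb -0.39, Jun -0.082, Ier3 -0.22 and Atf3 -0.33; for DSS in WT, Fosb -0.36; for DSS in Smad4 KO, Fosb 0.0018 and Jund 0.38; and for the difference, Fosb 0.36 and Atf3 0.27. With the mitochondrial share as a covariate they were Jun -0.0056 and Atf3 -0.061 on water, Fosb -0.11 for DSS in WT and Jund 0.046 for DSS in Smad4 KO. With the name prefix as a block they were Fos 0.15, Fosb 0.56, Junb 0.027 and Atf3 0.0030 after DSS, Fos -0.22 and Fosb -0.97 for DSS in WT, Junb -0.39 for DSS in Smad4 KO and Dusp1 0.15 for the difference. Among libraries of prefix D alone they were Fos 0.16, Fosb 0.56, Junb 0.032 and Atf3 0.0066 after DSS, and Fos -0.22 and Fosb -0.96 for DSS in WT. With the doubtful library left out they were Atf3 -0.0027 on water (edgeR, 2 groups) and Ier3 -0.017 for the difference (DESeq2). The cause was not tested. The prefix block compared DSS with water in Smad4 KO only by way of the WT libraries, since these groups share no prefix. The fit of prefix D alone could not be run on water or for DSS in Smad4 KO, as no Smad4 KO water library has that prefix. On water the prefixes were D, D, Z and MP in WT and Z, Z, MS and MP in Smad4 KO, so that genotype and prefix are partly mixed.

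Leaving out 1 library changed the sign of 19 fold changes, with these ranges. On water they were -0.072 to 0.11 for Jun, -0.11 to 0.28 for Ier3 and -0.095 to 0.23 for Atf3. After DSS they were -0.59 to 0.15 for Fos, -0.57 to 0.56 for Fosb, -0.13 to 0.056 for Junb and -0.32 to 0.19 for Atf3. For DSS in WT they were -0.56 to 0.63 for Fosb, -0.14 to 0.048 for Jun, -0.30 to 0.28 for Junb and -0.32 to 0.19 for Atf3. For DSS in Smad4 KO they were -0.45 to 0.083 for Fos, -0.26 to 0.37 for Jund, -0.71 to 0.30 for Egr1 and -0.38 to 0.054 for Atf3. For the difference they were -0.96 to 0.23 for Fosb, -0.097 to 0.30 for Ier3, -0.34 to 0.18 for Atf3 and -0.60 to 0.085 for Dusp1.

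Fosb had the fewest raw counts of the 10, 15 to 133 per library. For Jun after DSS the 95% interval ran from 0.67 to 1.09 of the WT level, whereas for Fosb it ran from 0.39 to 2.45 and for Egr1 from 0.34 to 1.65.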
